A study of Mus musculus with 16 samples.

Results

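The loci described here are H19, Igf2, Dlk1, Meg3 and Rasgrf1, 5 imprinted genes chosen from the 51121 autosomal genes of GENCODE vM21 on mm10. Their control regions are known to carry methylation on the paternal chromosome, and they are not all the genes of this kind. Whole genome bisulphite sequencing gave 16 libraries of spleen cells from C57BL/6J mice aged 6 to 8 weeks, 8 of resting B cells (CD43-) and 8 of naive CD4+ T cells (CD62L+), both bead-sorted from pooled mice, with 4 libraries per sex and cell type. In each sex and cell type, 2 libraries were plain bisulphite (BS), which reads 5-methylcytosine and 5-hydroxymethylcytosine together, and 2 were oxidative bisulphite (oxBS), which oxidises 5-hydroxymethylcytosine first and so leaves 5-methylcytosine alone as the methylated call. For each gene, methylated and unmethylated calls were summed in 500 bp tiles from 35 kb upstream of the start site to the gene end. A tile was taken as measured when it held 3 CpGs or more and when 5 libraries or more of each cell type had at least 20 calls. Of 676 tiles with a CpG in the 5 windows, 492 were measured, and 89 of these had a methylation level between 30 and 70% in the pool of all libraries.

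At an imprinted locus, one parental chromosome carries DNA methylation at a control region and the other does not, so that the mixture of both chromosomes reads close to the middle of the scale in any cell type that keeps the imprint. H19, a long non-coding RNA made from the maternal chromosome, and Igf2, a fetal growth factor made from the paternal chromosome, share a control region upstream of H19 that binds the insulator protein CTCF when unmethylated. Dlk1, a transmembrane protein related to Notch ligands and made from the paternal chromosome, and Meg3, a maternal long non-coding RNA, share a control region between them, and the Meg3 promoter is methylated on the paternal chromosome as well. Rasgrf1, a guanine nucleotide exchange factor for Ras, is made from the paternal chromosome and has its control region and a tandem repeat upstream of the gene. The zinc finger protein ZFP57 keeps imprints through early development and binds a methylated hexamer, TGCCGC. The mice were inbred and the calls carry no parental allele, so that an imprinted region at 50% and a mixture of methylated and unmethylated cells at 50% cannot be told apart here.

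The libraries held between 123693203 and 171130063 calls, or 5.83 to 8.07 calls per autosomal CpG, and 78.4 to 81.5% of calls in each were methylated. Promoters of lineage genes were read as a check of the labels. All 5 B cell genes read (Cd79a, Cd79b, Ms4a1, Cd22 and Blk) had lower methylation within 500 bp of the start site in B cells, and all 6 T cell genes (Cd3d, Cd3e, Cd3g, Cd4, Cd5 and Lck) had lower methylation in T cells, with no overlap between the libraries of the 2 cell types. The 3 myeloid genes read in the same way overlapped between the cell types. Csf1r, which encodes a receptor of macrophages, was at 90.2% in B cell libraries against 95.0% in those of T cells, Lyz2, a lysozyme, at 17.8% against 28.2%, and Itgam, an integrin, at 48.0% against 32.4%. No label names the mice behind a library, so that a p-value measures the spread between these libraries, which may be technical. Whether BS and oxBS libraries of a sex and cell type came from the same mice is not stated, and the 8 libraries of a cell type may stand for fewer independent pools.

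Intermediate tiles were spread over all 5 windows (see the plot of tile methylation along the windows). They numbered 9 of 55 measured tiles at H19, 11 of 51 at Igf2, 14 of 77 at Dlk1, 19 of 112 at Meg3 and 36 of 197 at Rasgrf1, or 18.1% of measured tiles together. Among all 2212055 measured autosomal tiles, 155087 lay in the same range, or 7.01%. Most of the remaining tiles in the windows were highly methylated, with 361 tiles above 70% and 42 below 30%. The tiles nearest the limits were both of Meg3 at the lower end, at 29.5% outside and 31.2% inside, while a Meg3 tile at 69.7% lay just inside the upper end and a Rasgrf1 tile at 70.1% just outside. In B cells and T cells taken separately, 71 of the 89 tiles were between 30 and 70% in both, 10 in B cells alone, 7 in T cells alone and 1 in neither.

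**Figure D1:**
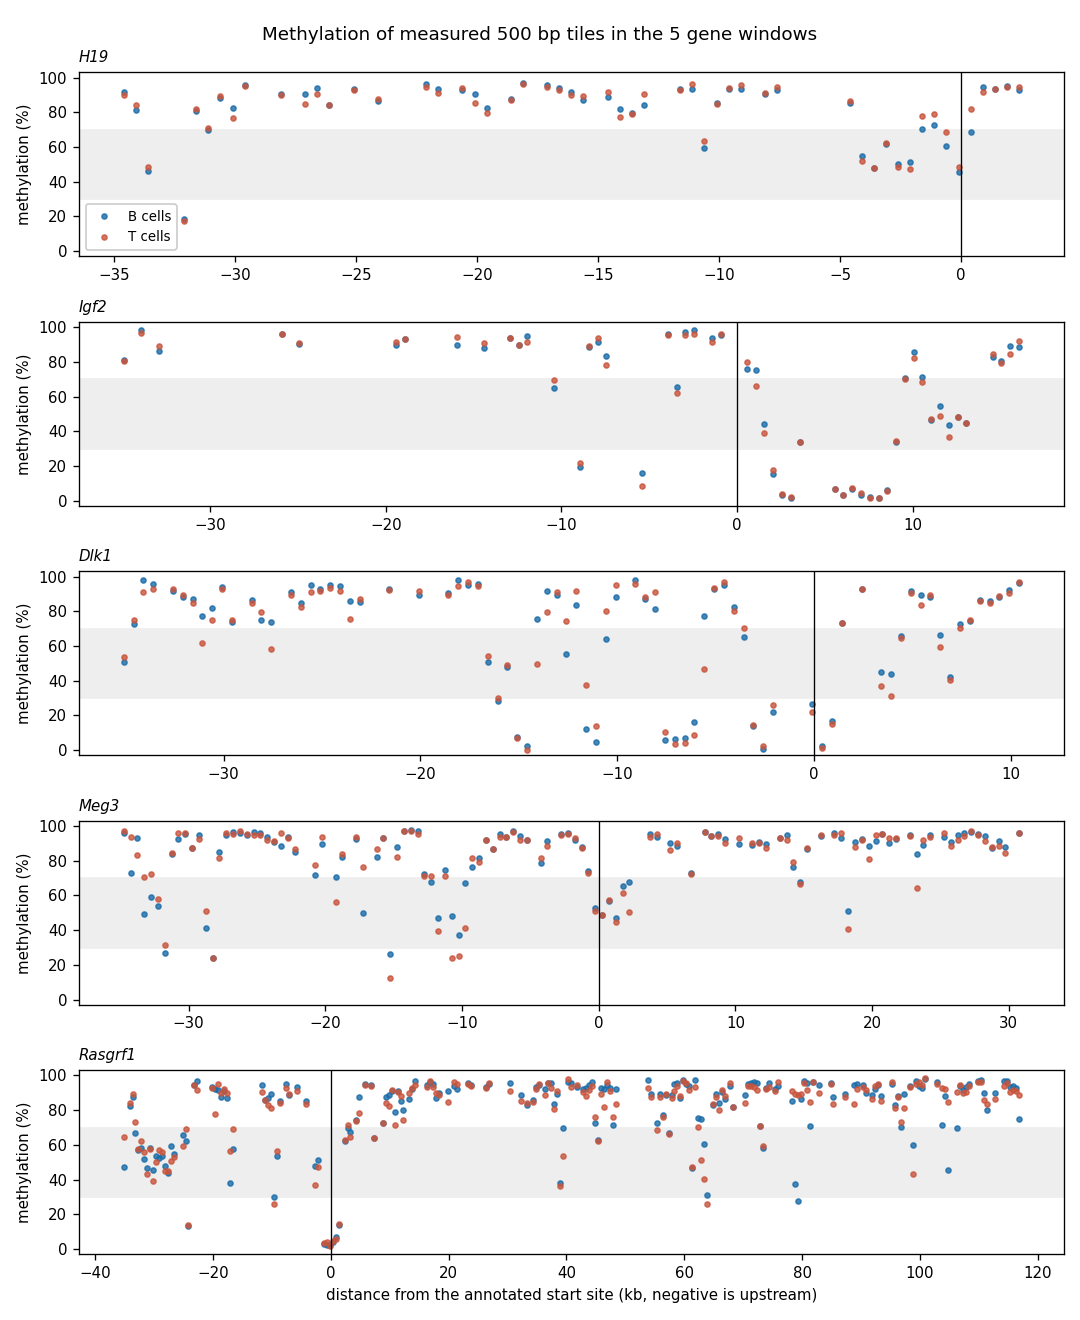
Methylation of each measured 500 bp tile against its distance from the annotated start site in kb, for the 5 gene windows, with the 8 libraries of B cells (blue) and the 8 of T cells (red) pooled. The grey band marks 30 to 70%. The band is filled in a run of 13 tiles upstream of Rasgrf1 and in shorter runs upstream of H19, over Igf2 and at the Meg3 promoter.

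Neighbouring tiles at 30 to 70% formed 7 runs of at least 3 tiles, treated here as regions. The longest was the Rasgrf1 upstream region at chr9:89877001-89883500, which covered 6500 bp in 13 tiles, lay between genes, and sat 26.4 to 32.9 kb upstream of the start site. The H19 upstream region at chr7:142580001-142582500 held 5 tiles and lay 1.86 to 4.36 kb upstream of H19. The Igf2 region at chr7:142653501-142656500 held 6 tiles 10.3 to 13.3 kb downstream of the start site, over coding and untranslated exons of Igf2 and the microRNA gene Mir483. The Meg3 promoter region at chr12:109540501-109543500 held 6 tiles from 0.5 kb upstream to 2.5 kb downstream of the start site. The other 3 regions held 3 tiles each: an intronic one in Dlk1 at chr12:109456001-109457500, one far upstream of Meg3 at chr12:109507501-109509000, in an intron of Gm34081, and one nearer to Meg3 at chr12:109530001-109531500. They are called the Dlk1 intron, the far Meg3 region and the near Meg3 upstream region.

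The sequence of the H19 upstream region carried 3 matches to the CTCF core, written GNGGNGGCA and searched on both strands. They are shown because the region is the textbook CTCF insulator, on the minus strand, which H19 is read from, with the core in capitals and 15 bases on either side.
H19 core 1, chr7:142580295-142580333: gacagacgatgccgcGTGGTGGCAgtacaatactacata
H19 core 2, chr7:142580750-142580788: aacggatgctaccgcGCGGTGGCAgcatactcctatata
H19 core 3, chr7:142582020-142582058: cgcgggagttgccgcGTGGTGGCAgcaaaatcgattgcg
Core 1 and core 3 each follow directly on a ZFP57 hexamer, tgccgc, and the hexamer and the core do not overlap. The CpG in the hexamer beside core 1 was methylated at 48.5% over all libraries, and that beside core 3 at 47.2%. The single CpG inside core 2 was at 49.2% in B cell libraries against 50.7% in those of T cells. The region held 6 hexamers in all, whose CpGs ran from 47.2 to 50.3%.

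The Rasgrf1 upstream region held 7 hexamers, of which 6 fell in 296 bases. This stretch is shown because it carries the densest CpGs of the longest region. It is the plus strand of chr9:89879598-89879893, with each hexamer in capitals.
Rasgrf1 stretch: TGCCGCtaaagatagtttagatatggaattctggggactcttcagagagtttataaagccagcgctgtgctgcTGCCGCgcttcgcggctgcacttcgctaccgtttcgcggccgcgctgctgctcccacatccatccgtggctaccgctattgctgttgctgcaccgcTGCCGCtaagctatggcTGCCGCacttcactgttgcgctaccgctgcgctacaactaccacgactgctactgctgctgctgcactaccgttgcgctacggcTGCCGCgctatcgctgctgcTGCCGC
Its 28 CpGs were methylated at 42.0% over all libraries, 45.8% in B cell libraries against 38.7% in those of T cells, and single CpGs ran from 36.2 to 52.0%. A RefSeq promoter of Meg3, chr12:109540746-109541045 of GRCm38.p6 on the plus strand, is shown because it holds the start site inside the Meg3 promoter region, with its 13 CpGs in capitals.
Meg3 promoter: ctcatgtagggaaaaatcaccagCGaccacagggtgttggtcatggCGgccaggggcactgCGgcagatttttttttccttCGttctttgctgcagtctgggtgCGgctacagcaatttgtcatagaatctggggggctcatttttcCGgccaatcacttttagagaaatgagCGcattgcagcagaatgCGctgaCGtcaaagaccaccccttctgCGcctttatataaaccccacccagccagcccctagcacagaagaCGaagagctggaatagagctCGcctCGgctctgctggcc
These 13 CpGs were at 51.6% over all libraries and ran from 44.9 to 64.9% one by one. Single libraries ran from 41.2 to 63.6%. Another RefSeq promoter of Meg3, chr12:109545148-109545447, held 1 CpG, at 86.2% over all libraries.

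The hexamer was present in 7 of 39 tiles inside the 7 regions (17.9%) and in 2 of 50 intermediate tiles outside them (4%). It was present in 5.58% of all autosomal tiles at 30 to 70% and in 5.54% of all measured tiles. The CTCF core was present in 9 of 39 tiles inside regions (23.1%) and 7 of 50 outside them (14%), against 10.6% of all autosomal tiles at 30 to 70% and 8.64% of all measured tiles. No hexamer was found in the Igf2 region, the Dlk1 intron or the far Meg3 region, and the near Meg3 upstream region and the Meg3 promoter region held 1 each. All regions except the far Meg3 region held at least 1 match to the CTCF core, with 5 in the Meg3 promoter region. The matches in the Meg3 promoter region were mostly the G run GGGGGGGCA, unlike the GTGGTGGCA and GCGGTGGCA of the H19 upstream region. A match does not show that CTCF binds there. The hexamer contains a CpG, and the sets of tiles were not matched for CpGs. The median was 10 CpGs per tile inside regions, 6.5 outside them and 6 in all autosomal tiles at 30 to 70%. Whether that bears on the shares was not tested. These counts are descriptions of letters in a tile, with no test.

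The regions differed in how single CpGs were methylated (see the plot of single CpGs). In the H19, Igf2, Meg3 promoter and Rasgrf1 regions, at least 86.4% of CpGs lay between 30 and 70%. These were 65 of 71 CpGs upstream of H19 (91.5%), 57 of 66 in Igf2 (86.4%), 81 of 90 at the Meg3 promoter (90%) and 131 of 136 upstream of Rasgrf1 (96.3%). Single CpGs ran from 41.55 to 87.8% upstream of H19, from 15.9 to 93.75% in Igf2 and from 28.7 to 95.8% at the Meg3 promoter. Upstream of Rasgrf1 they ran from 25%, on 4 calls, to 78.6%. In the Dlk1 intron, 4 of 16 CpGs lay in that range (25%), single CpGs ran from 0 to 94.9%, and the tile level was an average of low and high CpGs. In the far Meg3 region, 11 of 26 CpGs were in the range (42.3%), with single CpGs from 2.3 to 100%. In the near Meg3 upstream region, 17 of 24 were in it (70.8%). Across CpGs with at least 20 calls in all libraries together, 364 of 426 in the 7 regions (85.4%) and 197 of 371 in the other intermediate tiles (53.1%) lay at 30 to 70%, against 43.7% in all autosomal tiles at 30 to 70%.

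**Figure D2:**
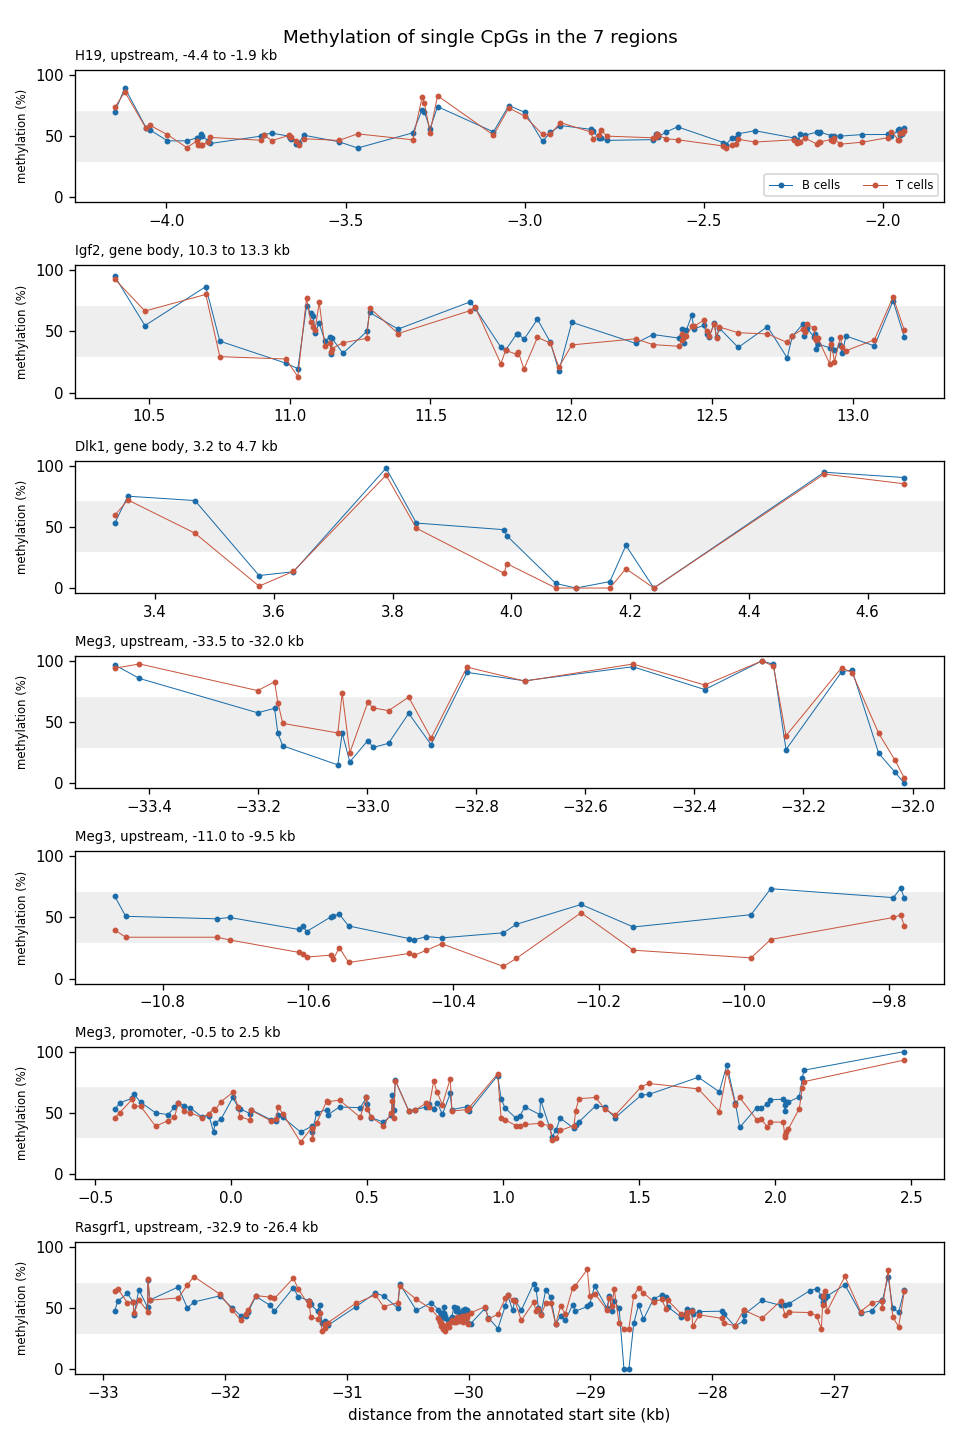
Methylation of single CpGs in the 7 regions against distance from the annotated start site of the gene in kb, with B cells (blue) and T cells (red) pooled over 8 libraries each. The grey band marks 30 to 70%. CpGs stayed mostly in the band in 4 regions, ran from 0 to 94.9% in the Dlk1 intron, and lay lower in T cells than in B cells throughout the near Meg3 upstream region.

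The 4 regions with CpG after CpG near the middle were then compared between cell types. Upstream of H19, the level was 52.9% ± 3.4 in B cell libraries against 51.2% ± 4.5 in those of T cells (SD, n = 8 each). The lowest, median and highest B cell libraries were at 46.8, 52.5 and 57.2%, and those of T cells at 44.8, 50.6 and 58.8%, so that the libraries overlapped over almost their whole range. The difference of 1.76 points was smaller than the spread between libraries (two-sided exact permutation test, p = 0.385), and shifts from -2.5 to 6.0 points were not rejected at 0.05. It ran from 0.853 points without the female BS library 13 of T cells to 2.84 points without the male BS library 5 of T cells, and it was below 0 in oxBS libraries alone (-1.98 points, against 5.5 in BS) and in male libraries alone (-1.25 points, against 4.77 in female ones), with no p under 0.05 in any of these. In Igf2, B cell libraries averaged 48.5% ± 3.2 and T cell libraries 47.5% ± 5.0 (SD, n = 8 each). Libraries ran from 44.5 to 55.3% in B cells, with a median of 48.1%, and from 39.7 to 52.8% in T cells, with a median of 48.0%. The difference was 1.07 points (exact permutation p = 0.617, interval -3.4 to 5.6), and it ran from -0.030 points without the male BS library 7 of T cells to 1.83 points without the female oxBS library 16 of T cells.

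At the Meg3 promoter, B cell libraries averaged 54.1% ± 2.0 and T cell libraries 51.3% ± 4.4 (SD, n = 8 each), with libraries from 51.3 to 57.1% around a median of 53.9% in B cells and from 44.1 to 57.2% around a median of 51.8% in T cells. The B cell libraries lay within the range of the T cell libraries. The difference was 2.86 points (exact permutation p = 0.123, interval -0.8 to 6.5), and it passed 0.05 when the male BS library 7 of T cells was left out (3.71 points, exact permutation p = 0.041). Upstream of Rasgrf1, B cell libraries averaged 50.5% ± 3.3 and T cell libraries 47.7% ± 2.2 (SD, n = 8 each), with libraries from 45.5 to 54.4% around 51.3% and from 45.0 to 50.4% around 48.3%. The difference was 2.83 points (exact permutation p = 0.0681, interval -0.2 to 5.8). Leaving out the female BS library 10 of B cells gave 3.54 points (exact permutation p = 0.0214), leaving out the male BS library 1 of B cells gave 3.50 points (exact permutation p = 0.0242), and leaving out the male oxBS library 8 of T cells gave 3.22 points (exact permutation p = 0.0494). In the order of their levels in B cells, the 4 regions ran from the Meg3 promoter through the H19 and Rasgrf1 upstream regions to Igf2, and the library ranges of each overlapped those of the next.

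**Figure D3:**
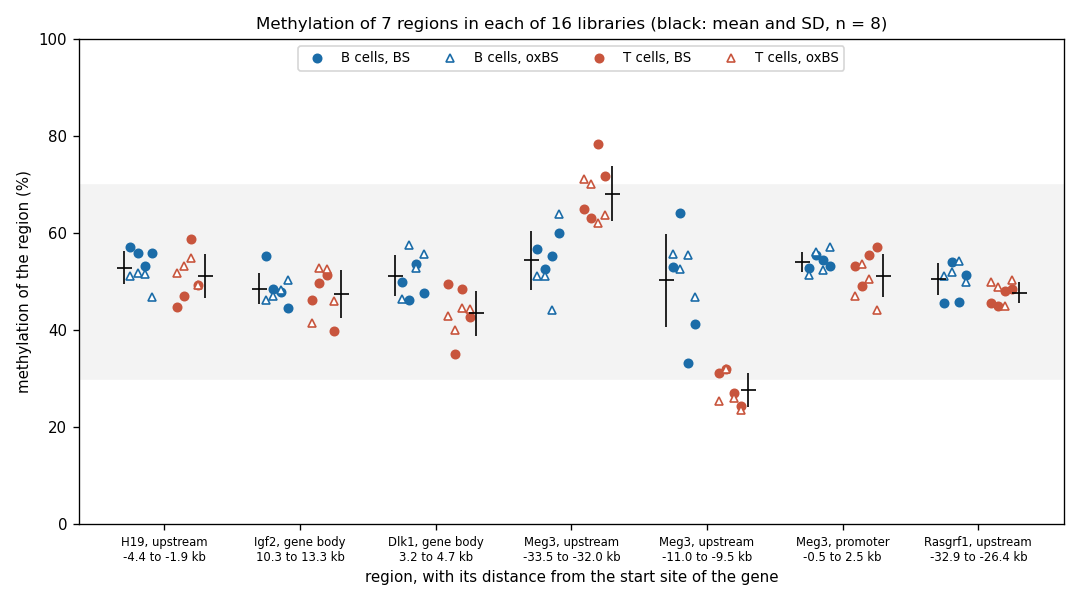
Methylation of the 7 regions in each library, in percent, with B cells in blue and T cells in red, BS libraries as filled circles, oxBS libraries as open triangles, and the mean and SD of 8 libraries in black. The H19, Igf2, Meg3 promoter and Rasgrf1 regions had library levels between 39.7 and 58.8% in both cell types, while the near Meg3 upstream region lay at 33.1 to 64.1% in B cells and 23.5 to 32.1% in T cells.

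The 3 short regions of the Dlk1-Meg3 domain differed between the cell types. In the near Meg3 upstream region, which overlaps the exon of Gm27528 and sits 9.5 to 11 kb upstream of Meg3, B cell libraries averaged 50.3% ± 9.6 and T cell libraries 27.7% ± 3.5 (SD, n = 8 each). B cell libraries ran from 33.1 to 64.1% with a median of 52.8%, and T cell libraries from 23.5 to 32.1% with a median of 26.4%. The lowest B cell library was above the highest T cell library. The difference of 22.6 points gave the smallest p that 8 against 8 libraries allow (exact permutation p = 0.000155, interval 15.0 to 30.2). It was 19.02 points among male libraries, 26.2 points among female ones, and 19.3 points in BS and 26.0 points in oxBS libraries, each of which gave the smallest p that 4 against 4 allow (exact permutation p = 0.0286). The only ZFP57 hexamer of the region lay at chr12:109530426-109530461 in the stretch shown next, hexamer in capitals, and its CpG was methylated at 52.6% in B cell libraries against 25.3% in those of T cells.
Meg3 upstream hexamer: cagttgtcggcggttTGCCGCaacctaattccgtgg

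The far Meg3 region went in the other direction, with B cells at 54.4% ± 6.1 and T cells at 68.2% ± 5.6 (SD, n = 8 each). Its libraries ran from 44.2 to 64.0% in B cells, with T cells from 62.1 to 78.4%, so that the ranges met only at their edges. T cells were higher by 13.8 points (B minus T -13.8, exact permutation p = 0.000622, interval -20.1 to -7.5). The Dlk1 intron was at 51.2% ± 4.3 in B cell libraries against 43.5% ± 4.6 in those of T cells (SD, n = 8 each), with libraries from 46.3 to 57.5% and from 35.1 to 49.4%. The difference was 7.8 points (exact permutation p = 0.00326, interval 3.1 to 12.6), on 70 to 115 calls per library. It was 5.49 points in BS libraries (exact permutation p = 0.229) and 10.1 points in oxBS ones (exact permutation p = 0.0286). Among male libraries it was 7.385 points (exact permutation p = 0.0571), and among female ones 8.22 points (exact permutation p = 0.0857). None of the 3 tiles of the Dlk1 intron was called in the tile test described next. The level of the Dlk1 intron depended on how CpGs were weighted, since the mean over CpGs gave 43.0% in B cell libraries against 36.1% in those of T cells. In all, 3 of the 7 regions passed an unadjusted 0.05 between B and T cells, and the near Meg3 upstream region alone did so in male libraries taken by themselves. Runs elsewhere on the autosomes were not put through this test, so there is no genome-wide share to set beside this count. In the far Meg3 region, B minus T was -13.1 points in male libraries (exact permutation p = 0.0857) and -14.4 points in female ones (exact permutation p = 0.0286).

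Tile by tile, the difference between B and T cells was tested with a quasi-binomial logistic model over all measured autosomal tiles, with sex and assay as further terms. A tile was called when its adjusted p (Benjamini-Hochberg over all these tiles) was under 0.05 and the cell types differed by at least 10 points. Genome-wide, 4.86% of measured tiles and 28.6% of tiles at 30 to 70% were called. Of the 89 intermediate tiles of the 5 windows, 14 were called (15.7%), and of all 492 measured tiles in the windows 25 (5.08%). Of the 14, 7 were higher in B cells and 7 in T cells, while genome-wide 17.5% of tiles at 30 to 70% were called as higher in B cells, with 11.1% called as higher in T cells. The median size of the difference was 4.003 points in the 89 tiles and 6.94 points in all autosomal tiles at 30 to 70%. The called tiles were 4 of 39 inside the regions and 10 of 50 outside them. None of the 20 intermediate tiles of H19 and Igf2 was called, and their adjusted p-values ran from 0.461 upwards.

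**Figure D4:**
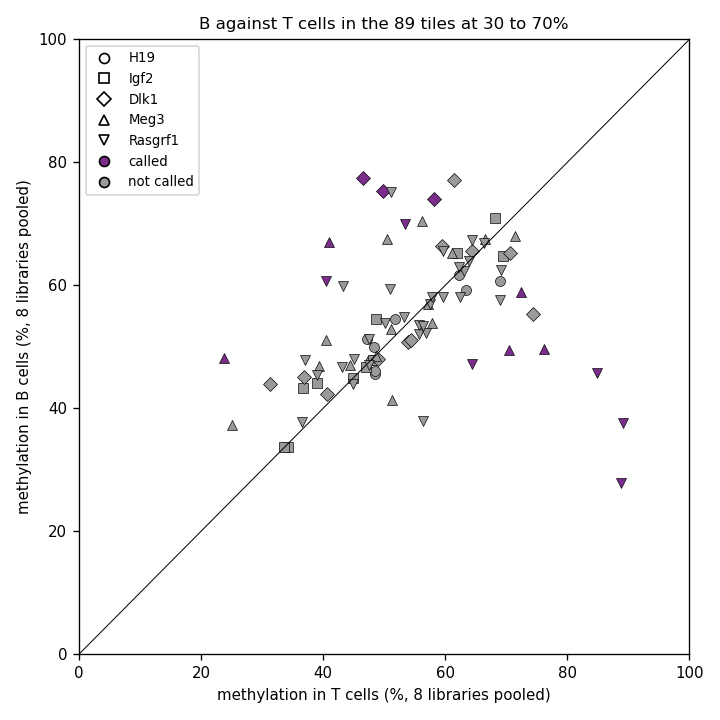
Methylation in B cells against T cells, in percent, for the 89 tiles at 30 to 70%, with 1 point per tile, the shape giving the gene and purple marking the 14 called tiles. H19 and Igf2 tiles lie along the line of equality, and 3 Rasgrf1 tiles at the lower right have the largest differences.

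The largest differences were inside Rasgrf1, in introns far from its control region. In the tile at chr9:89989001-89989500, 79.3 kb downstream of the start site, B cell libraries were at 3.23, 29.4 and 40.6% (lowest, median, highest) and T cell libraries at 81.2, 88.5 and 95.5%. The pooled difference was -60.9 points (quasi-binomial adjusted p = 2.09e-05). The tile just before it, at 78.8 kb, had B cell libraries at 5.0, 38.5 and 52.3% and T cell libraries at 84.0, 90.5 and 94.6%, a difference of -51.5 points (quasi-binomial adjusted p = 3.83e-05). No library of one cell type reached those of the other in either tile. The lowest B cell value in both came from the female BS library 12, the one with the fewest calls of all, on 20 calls in the tile at 78.8 kb and 31 in the other. Without that library, both tiles were still called.

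A tile 105 kb downstream of the Rasgrf1 start site had B cell libraries at 37.9, 43.7 and 55.0% and T cell libraries at 70.4, 83.5 and 92.0%, a difference of -39.2 points (quasi-binomial adjusted p = 9.47e-05). Upstream of Rasgrf1, at the outer end of the window, the tile at 35.2 kb differed by -17.1 points (quasi-binomial adjusted p = 0.00865), with B cell libraries from 38.9 to 55.4% and T cell libraries from 51.3 to 74.3%. The other 2 called intermediate tiles of Rasgrf1 were higher in B cells. The intronic tile at 63.3 kb was at 55.7 to 64.2% in B cells and 32.4 to 45.6% in T cells, a difference of 20.2 points (quasi-binomial adjusted p = 0.0019), and that at 39.3 kb at 60.7 to 77.3% and 47.8 to 58.5%, a difference of 16.6 points (quasi-binomial adjusted p = 0.0199). Each of these 2 intronic tiles left a gap between the cell types. None of the 13 tiles of the Rasgrf1 upstream region was called.

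The 3 called intermediate tiles of the Dlk1 window lay upstream of the gene and were higher in B cells. The tile at chr12:109447001-109447500, 5.57 kb upstream, was at 67.5 to 88.0% in B cells, with a median of 77.8%, and at 37.0 to 55.8% in T cells, with a median of 47.4%. It differed by 30.9 points (quasi-binomial adjusted p = 0.000303), and the cell types did not overlap. The tile 14.1 kb upstream differed by 25.6 points (quasi-binomial adjusted p = 0.00348). Its B cell libraries ran from 69.1 to 79.6%, and its T cell libraries from 34.9 to 53.3% apart from the female BS library 15 at 75.0%. The tile 27.6 kb upstream differed by 15.8 points (quasi-binomial adjusted p = 0.00302), with B cell libraries from 67.4 to 79.7% and T cell libraries from 48.7 to 66.0%.

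The 5 called intermediate tiles of the Meg3 window lay upstream of the gene. Of these, 2 belonged to the near Meg3 upstream region and were higher in B cells, at 31.0 to 61.5% against 16.2 to 30.2% in the tile 10.8 kb upstream (24.4 points, quasi-binomial adjusted p = 0.00114) and at 46.5 to 77.1% against 29.6 to 53.7% in the tile 9.75 kb upstream (26.1 points, quasi-binomial adjusted p = 0.00544). The tile between them differed by 12.2 points and was not called (quasi-binomial adjusted p = 0.601). The other 3 were higher in T cells. The tile 17.3 kb upstream was at 36.2 to 65.2% in B cells and 60 to 84.5% in T cells (-26.4 points, quasi-binomial adjusted p = 0.00841). The remaining pair lay in the far Meg3 region, with differences of -20.8 points at 33.3 kb (quasi-binomial adjusted p = 0.00967) and -13.6 points at 32.8 kb (quasi-binomial adjusted p = 0.0272). The last of these was the least stable, and its call was lost when any 1 of 9 libraries (those the labels number 1, 2, 5, 6, 7, 9, 12, 14 and 16) was left out (adjusted p up to 0.061).

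Outside the range of 30 to 70%, a further 11 of 403 measured tiles of the windows were called (2.73%, against 3.07% of all autosomal tiles outside the range), and those described here were named after their values were seen. In the Dlk1 window they lay 13.6, 11.6 and 10.6 kb upstream, with pool levels of 85.4, 25.4 and 72.5% and differences of 11.8, -25.2 and -16.0 points. In the Meg3 window they lay 34.3 and 15.3 kb upstream, at 84.5 and 19.4%, with differences of -20.8 and 14 points. The 5 of Rasgrf1 had pool levels from 78.6 to 84.7%, and the one 19.7 kb upstream was higher in B cells by 14.2 points while the 4 inside the gene were higher in T cells. The remaining one, in H19, is given with the start sites.

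Start sites differed from gene to gene. The tile over the H19 start was at 47.1% in the pool, with B cell libraries at 33.1, 44.9 and 60.9% and T cell libraries at 38.7, 45.7 and 66.7% (lowest, median, highest), and was not called (quasi-binomial adjusted p = 0.832). The neighbouring tile just upstream was at 65.1%. In the first tile inside the gene, at 75.8% and so outside the range, T cells were higher, at 81.8% against 68.9% in B cells (quasi-binomial adjusted p = 0.00588). This tile was named after its values were seen. The tile over the Meg3 start was at 48.6%, with libraries from 42.4 to 55.7% in B cells, with T cells from 41.4 to 57.1% (quasi-binomial adjusted p = 0.998). The Dlk1 start tile was lower, at 24.1%, with libraries from 17.7 to 32.7% in B cells, with T cells from 15.5 to 31.3%. The Rasgrf1 start tile was nearly unmethylated, at 2.14%, with no library above 4.17%. The tile over the annotated Igf2 start held too few CpGs to be measured. The RefSeq promoter of 300 bp over that start was at 53.5% in the pool, on 2 CpGs. Other RefSeq promoters of Igf2, inside the gene, were at 9.73% on 14 CpGs, 1.51% on 24 CpGs and 50% on 7 CpGs.

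Some further tiles of the Dlk1-Meg3 domain that belonged to no region were also named after their values were seen. The tile over a coding exon of Dlk1, 6.93 kb downstream of the start, held 33 CpGs and was at 41.4%, with libraries from 28.2 to 53.1% in B cells, with T cells from 33.4 to 50.7%. Upstream of Meg3, 3 neighbouring tiles between chr12:109526501 and chr12:109528000 were nearly fully methylated, at 97.1, 97.5 and 96.2%. The next tile, centred 12.8 kb upstream, held 34 CpGs and was at 71.7% in the pool, just above the range. Of its CpGs, 18 lay at 30 to 70% and 16 above, and none below. The tile directly after it, from chr12:109528501, was at 69.7%, just inside the range, so the upper limit fell between these neighbours. The bounds of the control region shared by Dlk1 and Meg3 were not marked here, and no region named here is taken to be it.

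Neither sex nor assay gave a called tile, within the 89 tiles or in any autosomal tile at 30 to 70% (0% called in both comparisons). At an unadjusted p under 0.05, 4 of the 89 tiles passed for sex, against 3.28% of all autosomal tiles at 30 to 70%, and 1 passed for assay, against 8.11%. The tile with the smallest unadjusted p for sex lay in an intron of Rasgrf1, 73.3 kb downstream of the start, where male libraries were lower by 15.2 points (male minus female -15.2, quasi-binomial p = 0.00538 unadjusted). For the regions, male minus female differences ran from -8.57 points in the near Meg3 upstream region (exact permutation p = 0.214, interval -22.9 to 5.8) to 2.77 points in the Dlk1 intron (exact permutation p = 0.362, interval -3.5 to 9.0).

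BS minus oxBS differences of the regions, in which hydroxymethylated calls would remain, were 1.46 points upstream of H19 (interval -2.8 to 5.7), -0.191 points in Igf2 (interval -4.7 to 4.3), 2.33 points at the Meg3 promoter (interval -1.4 to 6.1) and -2.2 points upstream of Rasgrf1 (interval -5.3 to 1.0). They were less closely bounded in the 3 short regions, at -1.41 points in the Dlk1 intron (interval -7.9 to 5.0), 3.17 points in the far Meg3 region (interval -6.7 to 13.2) and -1.43 points in the near Meg3 upstream region (interval -16.4 to 13.8). The smallest exact permutation p among the 7 regions was 0.158, upstream of Rasgrf1. Leaving out the female BS library 12 of B cells moved that region to -3.06 points (exact permutation p = 0.0379). Within B cells alone, the H19 upstream region was 5.2 points higher in BS than in oxBS libraries, the smallest p that 4 against 4 allow (exact permutation p = 0.0286), while in T cells it was lower by 2.28 points (BS minus oxBS -2.28). The difference between those 2 values did not pass 0.05 (exact permutation p = 0.0547).

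The spread between libraries of a cell type was then set beside counting error. In the 89 tiles the SD between libraries had a median of 8.95 points, and it ran from 4.29 points in the Rasgrf1 tile at 63.3 kb to 15.7 points in a Rasgrf1 tile 28.7 kb upstream, in the upstream region. In that last tile, on 22 to 52 calls per library, B cell libraries were at 26.5, 56.5 and 81.2% (lowest, median, highest) and T cell libraries at 27.3, 59.5 and 68.8%. In all autosomal tiles at 30 to 70% the median was 8.00 points. With tiles of 1000 bp the order turned, at 6.74 points in the windows against 7.06 points in all autosomal tiles in the range. Counting error alone, with each call independent, gave a median of 6.69 points in the 89 tiles and 7.30 points in all autosomal tiles at 30 to 70%, since the tiles of the windows held more calls (median 56.5 per library against 46). The SD was above that counting error in 72 of the 89 tiles (80.9%), against 67.6% of all autosomal tiles at 30 to 70%. The dispersion of the model, which is 1 when calls vary as independent draws, had a median of 2.44 inside the regions, 1.48 in the other intermediate tiles of the windows and 1.32 in all autosomal tiles at 30 to 70%. These 3 sets also differed in their median CpGs per tile (10, 6.5 and 6) and median calls per library (63.5, 54 and 46). Whether that bears on the dispersion was not tested.

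Calls at neighbouring CpGs often come from the same read and are then not independent. When only the deepest CpG of each tile was counted in each library, counting error rose to a median of 14.6 points. None of the 89 tiles had an SD above it, against 0.562% of all autosomal tiles at 30 to 70%, so that few tiles anywhere could pass it. In most of the 89 tiles the spread thus lay between the values with each call independent and with only the deepest CpG counted. The latter leaves out reads that miss that CpG, and so sets counting error high. The mice were pooled and no label names them, so that spread between mice cannot be read from these libraries. Over whole regions, which average more reads, the SD between libraries of a cell type was 2.82 points upstream of Rasgrf1, 3.45 points at the Meg3 promoter, 3.95 points upstream of H19, 4.21 points in Igf2, 4.42 points in the Dlk1 intron, 5.87 points in the far Meg3 region and 7.24 points in the near Meg3 upstream region. In the same order, counting error with each call independent was 1.67, 1.99, 1.85, 2.25, 5.21, 3.59 and 3.70 points. Only the Dlk1 intron, on 70 to 115 calls per library, had an SD below its counting error. The order of the region SDs is therefore not an order of spread beyond counting. The widest range of any region was that of B cells in the near Meg3 upstream region, 31 points from lowest to highest library, while T cells spanned 8.55 points there. The 2 lowest B cell libraries were both male BS libraries.

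**Figure D5:**
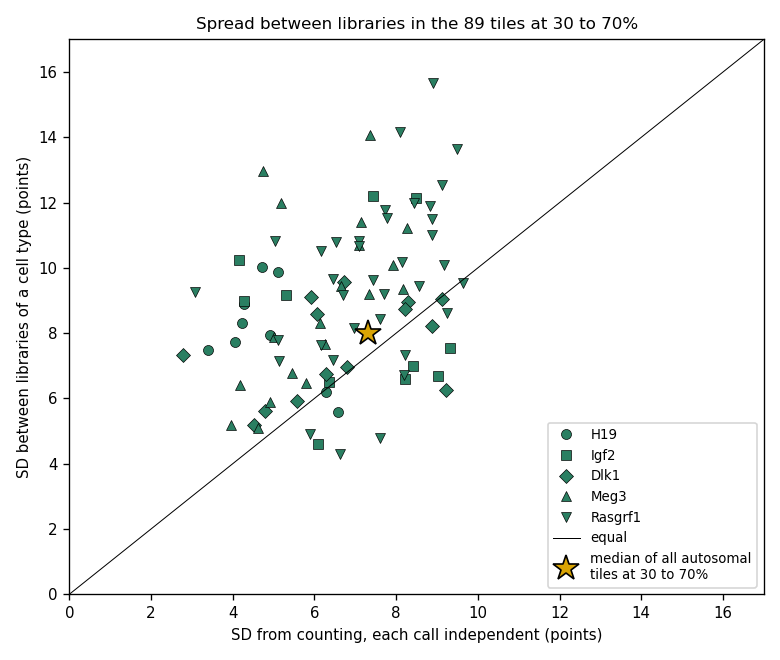
SD between libraries of a cell type against the SD expected from counting with each call independent, both in points of methylation, for the 89 tiles, with the shape giving the gene. The line marks equal values, and the star gives the medians of all autosomal tiles at 30 to 70%, 7.30 and 8.00 points. Of the 89 tiles, 72 lie above the line.

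Other genes of imprinted domains were counted under the same window rule. The tiles of 13 neighbouring or related imprinted-domain genes (Ins2, Th, Ascl2, Tspan32, Cd81, Rtl1, Rian, Mirg, Dio3, Begain, Wdr25, Ctsh and Zdbf2) that lay outside the 5 windows numbered 1096, of which 145 were at 30 to 70% (13.2%) and 35 were called (24.1% of the 145, against 28.6% of all autosomal tiles in that range). Of the 35, 13 were higher in B cells and 22 in T cells. Most of the calls came from Begain (12 of 20 tiles in the range), Wdr25 (10 of 17) and Cd81 (8 of 14). Mirg, a non-coding RNA downstream of Meg3, had none of its 88 tiles in the range, and Rtl1, a retrotransposon-derived gene of the same domain, had 7 of 67 with none called. Zdbf2, which has a paternally methylated region of its own, had 50 of 92 tiles in the range, none called, and a run of 22 tiles.

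Across the autosomes, runs of neighbouring tiles at 30 to 70% in the pool, in B cells and in T cells were mostly short: of 87325 runs, 76865 were single tiles and 65 had at least 5 tiles. The Rasgrf1 upstream region, with 13 tiles, was the third longest. The longest had 22 tiles and lay in the Zdbf2 window near Gm11608, at chr1:63259001-63270000. The others among the 5 longest outside the windows had 14 tiles over Gnas and Nespas at chr2:174294001-174301000, 11 tiles over Gnas and Nespas at chr2:174283501-174289000, 11 tiles over Mest at chr6:30734501-30740000 and 10 tiles over Peg3 and Usp29 at chr7:6727501-6732500. Gnas, Mest and Peg3 are known imprinted genes. The mean of the tile levels, each tile counted equally, was between 48.15 and 51.9% in these 5 runs and 52.2% in the Rasgrf1 run. With all calls pooled, as in the region levels above, the Rasgrf1 run was at 49.0%.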

How the data were processed

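The authors trimmed reads with Trim Galore 0.6.0, mapped them to mm10 with Bismark 0.20.0, kept alignments with a MAPQ of at least 10 and used SAMtools 1.3.1. The deposited values are counts of unmethylated and methylated calls per CpG and library, with strands combined. No molecular identifiers were used, so counting error covers sampling only. From these counts, calls at autosomal reference CpGs were summed in tiles and regions as described above, with Python 3.11.15, NumPy 2.4.6 and SciPy 1.17.1. Each tile was fitted by a quasi-binomial logistic model with terms for cell type, sex and assay over libraries with at least 20 calls (dispersion at least 1). Pooled levels used all calls. The tile test was tested on simulated data. Regions, runs of at least 3 neighbouring tiles at 30 to 70%, were compared by two-sided exact permutation over 12870 splits, in 21 tests with unadjusted p-values, and intervals were found by shifting one group in the same test. Genes, lists, motifs and tests were chosen with earlier results of these data known. Tiles were named where they formed a region, were called, held a start site or had the largest or smallest spread, and other runs by length. Alternatives changed the calls, CpGs, tile length, grid, range, model, terms and libraries. H19 promoter sequence was not analysed here. One gene of the B cell marker list is not reported here.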

Additional observations from a re-analysis of the deposited data

Results flagged for a closer look

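Within a cell type, the highest and the lowest library were compared with the others in 50 sets of library levels of the named regions and tiles, where chance flags about 1 in 20 sets, and 1 set held a library that stood apart. In the tile 14.1 kb upstream of Dlk1, the female BS library 15 of T cells was at 75.0%, while the next highest of the 8 T cell libraries was at 53.3% and the B cell libraries ran from 69.1 to 79.6%. The call of this tile between B and T cells held with that library left out. Of 21 tests of whether a cell type, sex or assay difference of a region itself differed between groups, 0 passed an unadjusted exact permutation p of 0.05. These tests were not all separate. In each region, the cell type difference between sexes and the sex difference between cell types are the same contrast. Assay differences between sexes were not among the tests.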

How the results depend on the processing

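Of 798 recomputed values, 747 stayed the same as or near the main result, 14 moved away from it, 37 lost their call and 0 reversed. For counts and median SDs, this refers to closeness to the main value and not to a side of a limit. The 37 are values of called tiles under single settings: each of the 14 called tiles lost its call in BS libraries alone and in oxBS libraries alone, where the differences kept their direction at 0.743 to 1.08 times and 0.919 to 1.3 times those in all libraries, and the Meg3 tile 32.8 kb upstream also did so on leaving out any 1 of 9 libraries. A range of 20 to 80% gave 138 tiles in the windows and a median SD of 7.70 points. Tiles of 1000 bp gave 53 tiles, 7 of them called between B and T cells, and a median SD of 6.74 points, below the 7.06 points of all autosomal tiles at 30 to 70% of that length, where 500 bp tiles had been above it. With BS libraries alone or oxBS libraries alone, on 8 libraries each, 0 tiles were called between B and T cells, against 14 and 19 at an unadjusted p under 0.05 in the quasi-binomial model, and the median SD in oxBS libraries alone was 8.16 points. In male libraries alone, 1 region passed between B and T cells, the near Meg3 upstream region. That region also passed in female, BS and oxBS libraries alone, as did the far Meg3 region in female and in BS libraries and the Dlk1 intron in oxBS libraries. For sex and assay, 1 region test passed in B cell libraries alone, the H19 upstream region between BS and oxBS, and 1 without the female BS library 12 of B cells, the Rasgrf1 upstream region. Leaving out each library in turn gave 86 to 91 tiles, 13 to 16 called between B and T cells, 0 called for sex and assay, a median SD of 8.48 to 9.05 points, 3 to 4 regions passing between B and T cells and 0 to 1 for sex and assay. No paired analysis was possible because the labels give each library its own number and name no mouse. The smallest difference called among the 89 tiles was 13.6 points.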
